A study of Acomys cahirinus and Mus musculus with 10 samples.

Results

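Transcript abundance was followed for 10 endothelial and angiogenic genes while a hole punched through the ear healed in *Acomys cahirinus*, the African spiny mouse, which regenerates the missing tissue, and in *Mus musculus* of the CD1 stock, which scars. The genes were listed by name, with earlier results of these data known: *Pecam1*, *Cdh5*, *Kdr*, *Flt1*, *Tek*, *Vwf*, *Vegfa*, *Angpt2*, *Sele* and *Lyve1*. They are 10 of 22126 named *M. musculus* genes and 10 of 14548 genes that could be paired between the species. The groups were the uninjured day of punching (D0) and D5, D10, D15 and D20 after it, in sexually mature females of each species, with 3 animals a group. Each library came from whole tissue, a ring of ear next to the wound margin, so endothelial cells were measured together with skin, cartilage, muscle and blood cells, and fewer cells of a type cannot be told apart from less RNA per cell.

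The deposited values are comparisons of each day with D0 that pool the animals of a group, so no spread between animals could be computed and no test across animals was possible. A change is described here as a rise or a fall only where the posterior probability of differential expression in the deposited comparison (EBSeq, an empirical Bayes model for RNA-seq counts) was at least 0.95. The group means were recovered from the deposited ratios and are given as normalised read counts per library. The brackets after a log2 fold change hold a 95% Clopper-Pearson interval that covers counting error only and not the spread between animals. On the scale of the D5 comparison, used for all levels given here, the means of a group summed to between 14201920 and 16318349 over all *A. cahirinus* components and to between 7440296 and 7993235 over all *M. musculus* genes. The 4 days of a species share the same D0 animals, and the species were normalised separately. In the low values, *A. cahirinus* D15 showed the single-read steps of 2 libraries where every other group showed 3. The cause of that was not tested.

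Blood vessels are lined by endothelial cells that hold together through platelet endothelial adhesion molecule (*Pecam1*) and vascular endothelial cadherin (*Cdh5*). New vessels sprout when the ligand *Vegfa* reaches its signalling receptor *Kdr*, while *Flt1* binds the same ligand tightly and acts largely as a decoy. The receptor *Tek* (Tie2) keeps vessels quiescent, and its context-dependent antagonist *Angpt2* loosens them. *Vwf* encodes von Willebrand factor, which tethers platelets, *Sele* the cytokine-induced E-selectin that catches leukocytes, and *Lyve1* a hyaluronan receptor of lymphatic vessels and of some tissue macrophages. Platelets and leukocytes also carry *Pecam1*, platelets and their precursors carry *Vwf*, monocytes *Flt1*, and keratinocytes are a source of *Vegfa* in healing skin.

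In *A. cahirinus* each gene was read from an assembled component, a group of contigs taken as one gene, and the sequences show how far these stand from mouse. For each pair, 90 bases within 1 coding exon are given as the sense strand 5′ to 3′, with the bases that differ between the species in capitals. They are shown for *Kdr* and *Pecam1*, the genes that lay on opposite sides of D0 in the species on every day, and for *Sele* and *Lyve1*, the genes whose mean changes stood furthest apart. The *M. musculus* bases lie, in the GRCm38 build with GENCODE M21 exons, at chr5:75974404-75974493 on the minus strand (*Kdr*, exon 2 of 30), chr11:106699794-106699883 minus (*Pecam1*, exon 3 of 14), chr1:164049262-164049351 plus (*Sele*, exon 3 of 14) and chr7:110859667-110859756 minus (*Lyve1*, exon 2 of 6).
Kdr, *M. musculus*: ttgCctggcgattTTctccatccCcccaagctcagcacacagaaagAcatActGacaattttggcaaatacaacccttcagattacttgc
Kdr, *A. cahirinus*: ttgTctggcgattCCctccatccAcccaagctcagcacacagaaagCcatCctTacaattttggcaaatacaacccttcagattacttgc
Pecam1, *M. musculus*: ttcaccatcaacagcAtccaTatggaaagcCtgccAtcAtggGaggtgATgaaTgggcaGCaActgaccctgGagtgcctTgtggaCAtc
Pecam1, *A. cahirinus*: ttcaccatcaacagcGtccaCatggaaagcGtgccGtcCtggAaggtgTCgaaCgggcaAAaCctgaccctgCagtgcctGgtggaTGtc
Sele, *M. musculus*: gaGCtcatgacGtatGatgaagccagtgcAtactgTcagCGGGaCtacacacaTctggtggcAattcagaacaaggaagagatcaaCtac
Sele, *A. cahirinus*: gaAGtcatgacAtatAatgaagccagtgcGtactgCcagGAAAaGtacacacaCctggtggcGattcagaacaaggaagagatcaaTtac
Lyve1, *M. musculus*: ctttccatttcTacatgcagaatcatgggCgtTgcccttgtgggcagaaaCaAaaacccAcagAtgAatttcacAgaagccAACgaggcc
Lyve1, *A. cahirinus*: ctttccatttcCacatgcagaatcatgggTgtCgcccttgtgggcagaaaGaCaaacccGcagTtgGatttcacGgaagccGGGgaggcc
The genes themselves lie in GRCm38 with *Cdh5* at chr8:104101625-104144511 (plus), *Flt1* at chr5:147561604-147726011 (minus), *Tek* at chr4:94739289-94874976 (plus), *Vwf* at chr6:125546774-125686679 (plus), *Vegfa* at chr17:46016993-46032369 (minus), *Angpt2* at chr8:18690263-18741562 (minus), *Kdr* at chr5:75932827-75978458 (minus), *Pecam1* at chr11:106654217-106750628 (minus), *Sele* at chr1:164048234-164057677 (plus) and *Lyve1* at chr7:110850607-110863239 (minus). These windows differ at 7 bases in *Kdr*, 16 in *Pecam1*, 14 in *Sele* and 12 in *Lyve1*. Over the aligned coding sequence the identity was 83.4% for *Pecam1* and 91.6% for *Tek*, with *Vegfa* at 93.3% over the 50% of its coding sequence that was aligned. The share of coding differences at the third codon position ran from 51.6% in *Pecam1* to 85.7% in *Vegfa*. The aligned part covered 50% of the coding sequence in *Sele* as well, 51.7% in *Lyve1*, 71.5% in *Flt1* and at least 92.1% in the other 6 genes.

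One component counted more than its gene. Of the 119 sequences in the *A. cahirinus* *Pecam1* component that matched a mouse transcript, 56 matched *Pecam1* best and 63 matched *Rbms3*, which encodes an RNA-binding protein. Every *A. cahirinus* value for *Pecam1* is therefore a sum over both genes, and the share of each was not measured. In *M. musculus*, where the genes are counted apart, *Rbms3* stood at 493 normalised reads at D0 and at 422, 641, 769 and 830 on D5 to D20, above D0 from D10 on. The components of the other 9 genes matched no other gene best.

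In *M. musculus*, 9 of the 10 genes rose at D5 and none fell, whereas in *A. cahirinus* 5 rose and 2 fell at D5 and none rose and 7 fell by D20. At D5, the background of paired genes called higher was 22.8% in *M. musculus* and 31.7% in *A. cahirinus*, and 17.0% and 11.4% were called lower. The median log2 fold change of the 10 genes at D5 was 0.95 in *M. musculus*, beside 0.03 over all paired genes, and 0.37 in *A. cahirinus*, beside 0.21. All *A. cahirinus* changes at D5 are to be read against that upward shift of 0.21, which was at most 0.10 on the other days.

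In *M. musculus* 3 of the 10 genes stayed higher on each later day and none was lower. They were *Pecam1*, *Kdr* and *Lyve1* at D10 and *Pecam1*, *Cdh5* and *Kdr* at D15 and D20. Of all paired genes, 21.1%, 18.3% and 17.0% were called higher on these days and 17.5%, 15.9% and 15.4% lower, so 3 of 10 lay not far above the background. The medians of the 10 genes were 0.57, 0.46 and 0.43, with all paired genes at 0.03 to 0.04.

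The number of lower genes in *A. cahirinus* grew from 5 of 10 at D10 to 6 at D15 and 7 at D20, with *Vwf* as the 1 gene higher at D10 and at D15. Of all paired genes, 11.7%, 14.9% and 15.5% were called lower on these days and 21.6%, 18.7% and 13.2% higher. The median of the 10 genes moved from -0.27 at D10 through -0.48 at D15 to -0.83 at D20. Without *Pecam1*, whose component also holds *Rbms3*, 6, 5, 6 and 6 of 9 genes were called in either direction on D5 to D20.

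**Figure D1:**
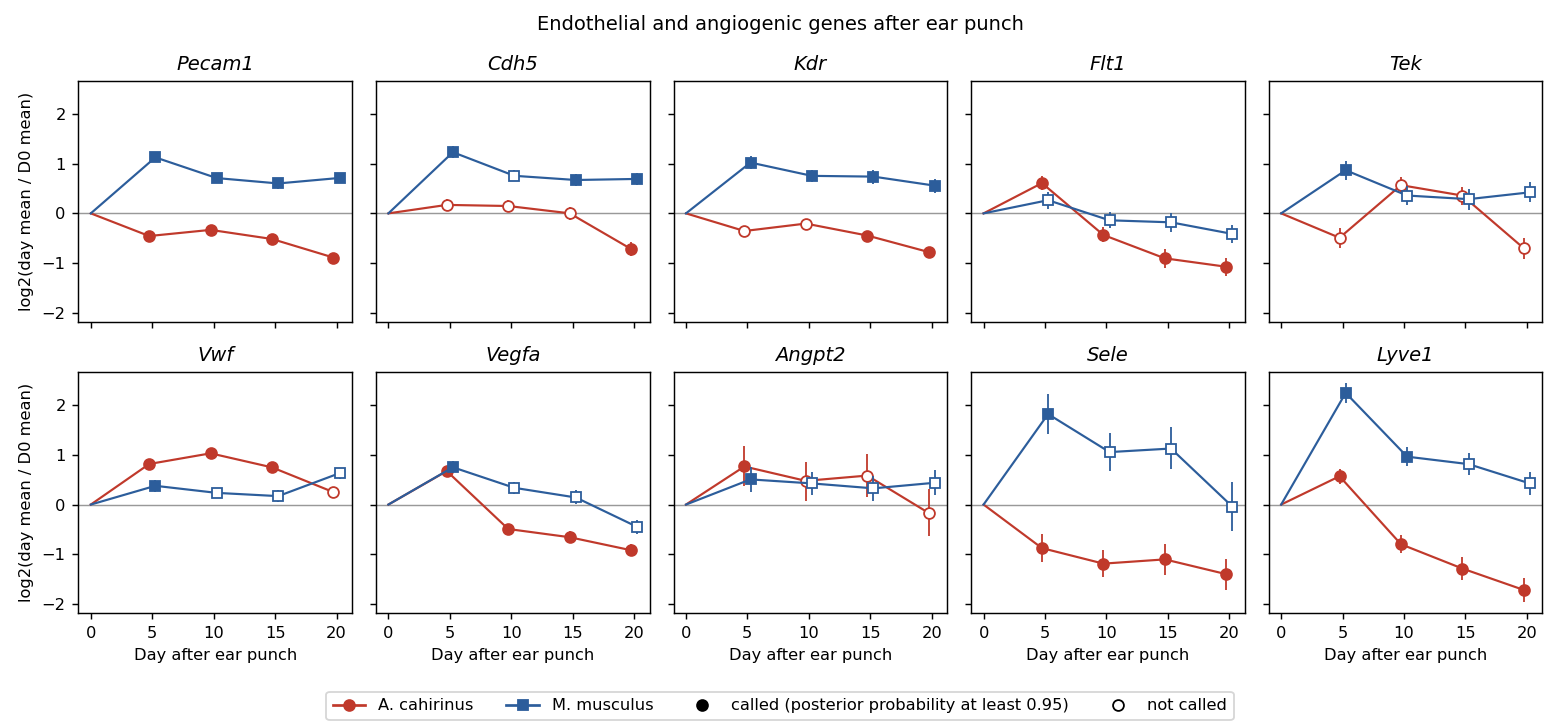
Log2 ratio of the day mean to the D0 mean (vertical axis) of each of the 10 genes against the day after punching, for *A. cahirinus* (red circles) and *M. musculus* (blue squares), with bars for the 95% counting interval and filled points where the comparison was called. *Kdr* runs below the D0 line on all 4 days in the spiny mouse and above it in *M. musculus*, and *Lyve1* ends at -1.72 and 0.42. The red *Pecam1* points also count *Rbms3*.

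*Vegfa*, the ligand, rose at D5 in both species, from 540 to 862 normalised reads in the spiny mouse and from 276 to 465 in *M. musculus*. In *A. cahirinus* it then stood at 384, 342 and 285 reads on D10, D15 and D20, and in *M. musculus* at 349, 305 and 202. Both series thus peaked at D5 and ended below D0. The log2 fold changes in *A. cahirinus* were 0.67 [0.58 to 0.77] at D5, then -0.49, -0.66 and -0.92 [-1.04 to -0.80] at D20, all called. In *M. musculus* only the 0.75 [0.63 to 0.88] at D5 was called, and the value at D20, -0.45 [-0.60 to -0.30], had a posterior probability of 0.00043. After D5, *Vegfa* was thus called below D0 on every day in *A. cahirinus* and on none in *M. musculus*, a difference that was not tested.

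*Kdr*, the main signalling receptor for *Vegfa*, lay below D0 on every day in *A. cahirinus* and above it on every day in *M. musculus*. In *A. cahirinus* it measured 727 reads at D0 and 568, 630, 533 and 423 on D5 to D20, falling at D15 (-0.45 [-0.55 to -0.35]) and D20 (-0.78 [-0.88 to -0.68]). At D5 the value of -0.36 missed the call, at a posterior probability of 0.944, and the -0.21 at D10 had one of 1.8e-07. In *M. musculus* it measured 225 reads at D0 and 457, 380, 376 and 331 afterwards, and rose on all 4 days, by a log2 of 1.02 [0.89 to 1.16], 0.76, 0.74 and 0.56 in turn. The levels of the species are not compared, since their scales were normalised separately and differ in total.

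*Flt1*, the decoy receptor, had the calls of the ligand, and not those of *Kdr*, in *A. cahirinus*. It measured 242 reads at D0, 369 at D5 and then 179, 129 and 115. It rose at D5, by 0.61 [0.47 to 0.75], and fell on D10, D15 and D20, by 0.44, 0.91 and 1.08 on the log2 scale. In *M. musculus* it measured 174 reads at D0 and 210, 158, 154 and 131 afterwards, with no day called and log2 values between -0.41 and 0.27.

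*Tek*, the angiopoietin receptor, rose only at D5 in *M. musculus* and was not called on any day in *A. cahirinus*. In *M. musculus* it measured 113 reads at D0 and 206, 144, 137 and 151 afterwards, with 0.87 [0.67 to 1.06] at D5. In *A. cahirinus* it measured 160 reads at D0 and 114, 237, 205 and 98.1 afterwards, below D0 at the first and last day and above it between. Its D20 value of -0.70 [-0.91 to -0.49] lay outside counting error and still had a posterior probability of 0.034, so the pooled means alone do not give the call.

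*Angpt2*, the antagonist, rose at D5 in both species by similar amounts. It measured 27.3 reads at D0 and 46.5, 38.1, 41.0 and 24.3 afterwards in *A. cahirinus*, and 76.0, 108, 102, 95.3 and 103 reads in *M. musculus*. The rises at D5 were 0.77 [0.37 to 1.18] and 0.51 [0.26 to 0.76], and no later day was called. Averaged over D5 to D20 its log2 fold change was 0.41 and 0.42 in the respective species, the closest of the 10 genes.

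*Pecam1* and *Cdh5*, the junction genes, both rose in *M. musculus*. *Pecam1* there went from 390 reads at D0 to 852 at D5 and then 638, 592 and 639, and rose on all 4 days by 1.13 [1.03 to 1.23], 0.71, 0.60 and 0.71. In *A. cahirinus* the component that holds *Pecam1* and *Rbms3* went from 1514 reads to 1103, 1203, 1059 and 817, and fell on all 4 days, by 0.46, 0.33, 0.52 and 0.89. Every value after D0 was thus lower in one species and higher in the other.

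*Cdh5*, whose component holds no other gene, went in *M. musculus* from 285 reads to 670 at D5 and then 482, 455 and 461. It rose at D5 (1.23 [1.12 to 1.35]), D15 (0.67) and D20 (0.69), and its 0.76 at D10 had a posterior probability of 0.836. In *A. cahirinus* it was 343 reads at D0 and 386, 380 and 343 up to D15, all not called, and 208 at D20, a fall of 0.72 [-0.86 to -0.57]. Up to D15 *Cdh5* was thus not called in *A. cahirinus*, and at D20 it was called in opposite directions in the species.

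*Vwf*, the platelet-binding factor, was the 1 gene whose mean change was higher in *A. cahirinus*. It measured 662 reads at D0 and 1166, 1353, 1112 and 787 afterwards, and rose at D5 (0.82 [0.74 to 0.90]), D10 (1.03) and D15 (0.75 [0.67 to 0.83]). In *M. musculus* it measured 360 reads at D0 and 468, 424, 405 and 559 afterwards, and rose at D5 (0.38 [0.26 to 0.49]) alone. Its highest *M. musculus* value, 0.63 at D20, was not called, at a posterior probability of 0.215.

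*Sele*, the inducible leukocyte selectin, had the widest gap between the species. In *M. musculus* it measured 22.9 reads at D0, 81.1 at D5, 47.7 and 50.1 at D10 and D15, and 22.2 at D20, its D0 level again. Only the D5 value, 1.82 [1.43 to 2.22], was called, while 1.06 at D10 and 1.13 at D15 had posterior probabilities of 0.799 and 0.760. In *A. cahirinus* it measured 102 reads at D0 and 55.7, 44.9, 47.6 and 38.7 afterwards, and fell on all 4 days, to 0.544, 0.438, 0.465 and 0.378 of D0. Its level in uninjured ear was thus the highest of its series in one species and near the lowest in the other.

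*Lyve1*, of lymphatic vessels and macrophages, rose at D5 in both species and then parted. In *M. musculus* it measured 88.0 reads at D0, 418 at D5, the largest rise of the 10 genes (2.25 [2.06 to 2.45], 4.76-fold), and 172, 155 and 118 afterwards, with D10 also called (0.97). In *A. cahirinus* it measured 206 reads at D0, 305 at D5 and 118, 84.1 and 62.4 afterwards. After the rise of 0.57 at D5 it fell by 0.80, 1.29 and 1.72 [-1.97 to -1.49], the largest fall of the 10 genes, which left D20 at 0.303 of D0.

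Averaged over the 4 days, 9 of the 10 genes had a lower log2 fold change in *A. cahirinus*, beside 47% of all paired genes. The differences (*A. cahirinus* minus *M. musculus*) were -2.14 for *Sele*, -1.92 for *Lyve1*, -1.34 for *Pecam1*, -1.22 for *Kdr*, -0.94 for *Cdh5*, -0.55 for *Tek*, -0.54 for *Vegfa*, -0.33 for *Flt1*, -0.01 for *Angpt2* and 0.36 for *Vwf*. For 7 of the 10 genes the mean was below D0 in *A. cahirinus* and above it in *M. musculus*, a combination held by 13.1% of paired genes. Over the 9 genes with a component of their own it was 6. The *A. cahirinus* means of *Tek* (-0.067) and *Cdh5* (-0.099), counted among them, were near 0. Calls in opposite directions on the same day were made for *Pecam1*, whose *A. cahirinus* component also counts *Rbms3*, on 4 days. They were made for *Kdr* on 2 days, and for *Cdh5*, *Sele* and *Lyve1* on 1. *Vwf*, *Vegfa*, *Angpt2* and *Lyve1* were called higher in both species at D5. The share of all paired genes called in opposite directions, or higher in both species, was not counted. None of the differences between the species could be tested, since the values hold no animals.

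**Figure D2:**
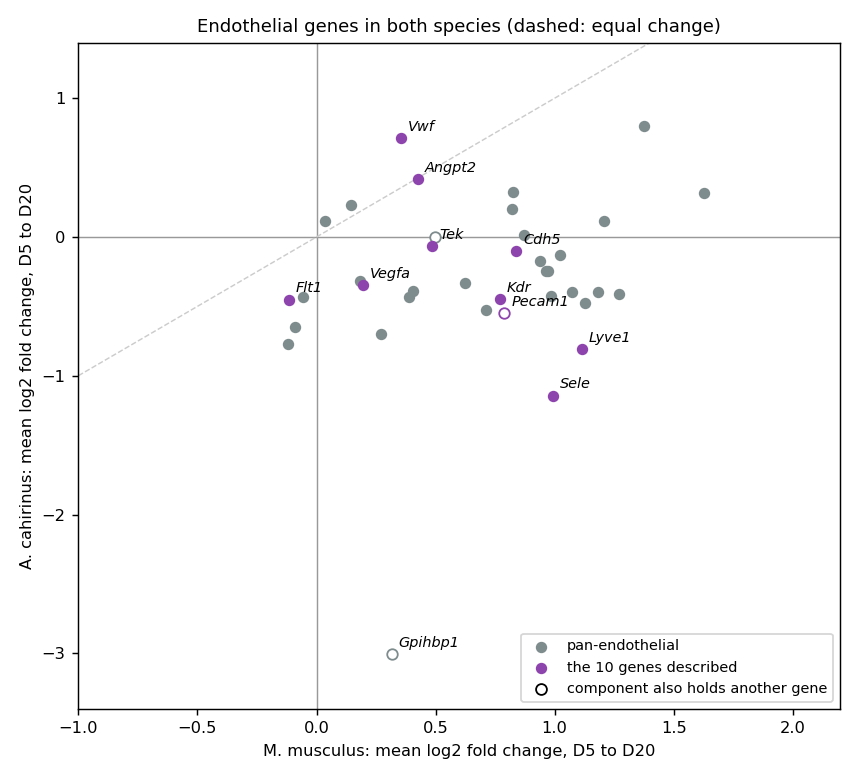
Log2 fold change of each gene, averaged over the 4 days after injury, in *A. cahirinus* (vertical axis) against *M. musculus* (horizontal axis), with the 10 genes in purple, the 28 further pan-endothelial genes in grey, and open points where the component also holds another gene. Among the 10 genes, *Sele* (-1.14 against 0.99) and *Lyve1* (-0.81 against 1.11) lie furthest below the line of equal change, and *Vwf* (0.71 against 0.35) lies above it. The pan-endothelial gene *Gpihbp1* (-3.01 against 0.32), an open point, lies further below the line than these.

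Levels can be compared between genes only per length, and here as D0 reads per kilobase of the longest sequence. In *M. musculus* the order was *Pecam1* (118), *Vegfa* (78.2), *Cdh5* (71.5), *Kdr* (41.2), *Vwf* (40.8), *Lyve1* (33.7), *Flt1* (27.8), *Tek* (24.2), *Angpt2* (21.4) and *Sele* (7.86). In *A. cahirinus* the component with *Pecam1* and *Rbms3* came first (298.2), followed by *Lyve1* (118), *Vegfa* (104), *Kdr* (100.5), *Cdh5* (83.7), *Vwf* (72.6), *Flt1* (52.6), *Sele* (46.3), *Tek* (33.0) and *Angpt2* (12.8). *Sele* was therefore last in uninjured *M. musculus* and eighth of the order in *A. cahirinus*. Counting intervals overlapped between *Lyve1* and *Vegfa*, *Vegfa* and *Kdr*, and *Flt1* and *Sele* in *A. cahirinus*. In *M. musculus* they overlapped between *Vegfa* and *Cdh5*, *Kdr* and *Vwf*, and along *Lyve1*, *Flt1*, *Tek* and *Angpt2*. At D20 *Vwf* stood second in *A. cahirinus*, at 86.4 reads per kilobase, and *Cdh5* second in *M. musculus*, at 116.

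**Figure D3:**
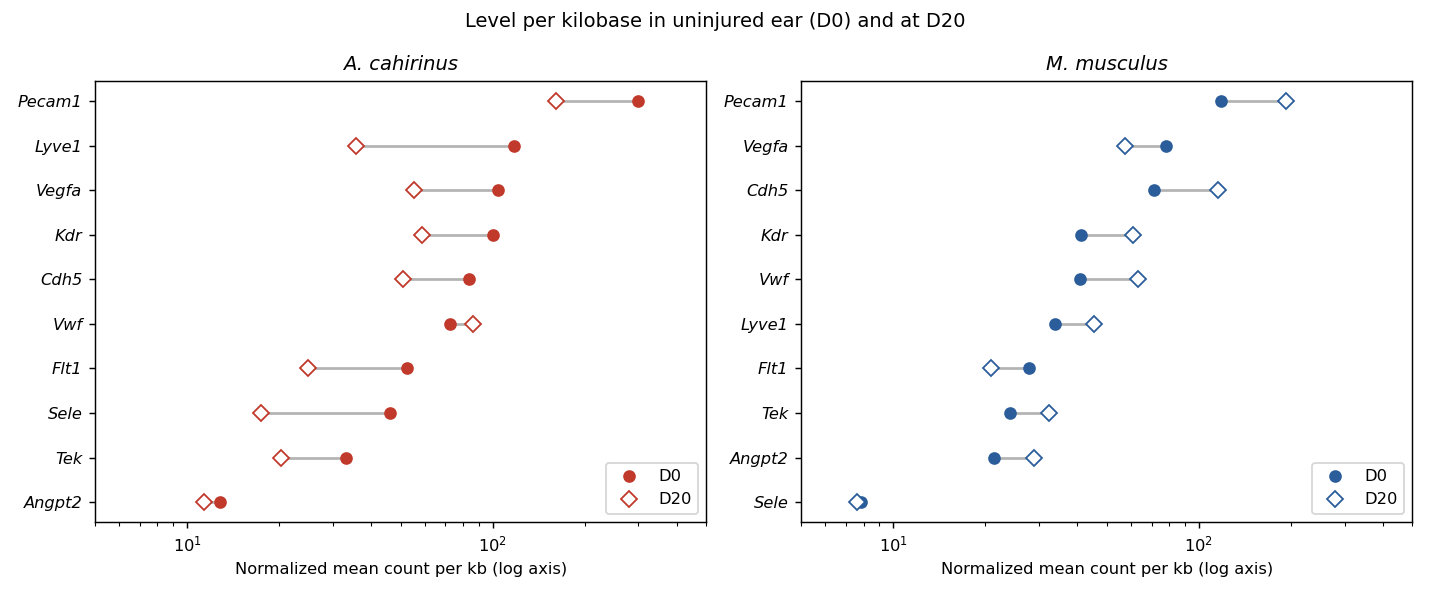
Mean normalised reads per kilobase (log axis) of the 10 genes in each species at D0 (filled circles) and D20 (open diamonds), in the order of the D0 level. *Pecam1* is highest in both, *Sele* lowest in *M. musculus* and *Angpt2* lowest in *A. cahirinus*, where the *Pecam1* component also counts *Rbms3*.

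A list of other endothelial genes was read from the same libraries. The counts of this list and of those after it stand beside the same background, on D5 to D20 in turn 22.8%, 21.1%, 18.3% and 17.0% of paired genes higher and 17.0%, 17.5%, 15.9% and 15.4% lower in *M. musculus*, with 31.7%, 21.6%, 18.7% and 13.2% higher and 11.4%, 11.7%, 14.9% and 15.5% lower in *A. cahirinus*. Of 30 further pan-endothelial genes 28 were found in both species, and all had a mean of at least 10 reads in some group. In *M. musculus* 15, 15, 10 and 14 of the 28 rose on D5, D10, D15 and D20, and 1, 1, 0 and 1 fell. In *A. cahirinus* 1, 2, 0 and 0 rose and 6, 2, 6 and 10 fell. The medians were 0.91, 0.74, 0.68 and 0.57 in *M. musculus*, against -0.12, -0.03, -0.30 and -0.61 in *A. cahirinus*. Their mean change was lower in *A. cahirinus* for 26 of 28 genes, with a median difference of -0.96 beside 0.04 over all paired genes.

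Summed over the 26 pan-endothelial genes with an *A. cahirinus* component of their own, the level went from 11863 reads at D0 to 10498, 9557, 8336 and 7662 in *A. cahirinus*. In *M. musculus* the same genes went from 7003 reads to 9671, 8326, 8390 and 8927. *Klf4*, *Aqp1* and *Cd34*, which keratinocytes or other cells also carry, made up 63.4% of that D0 sum in *A. cahirinus* and 70% in *M. musculus*. Without them, a choice made after their values were seen, the other 23 genes summed to 4346 reads at D0 and to 4735, 4289, 3878 and 3108 in *A. cahirinus*, against 2104 and then 4409, 3754, 3632 and 3660 in *M. musculus*. At D5 the *A. cahirinus* sum was thus below D0 with these genes and above it without them, while in *M. musculus* it was above D0 on all 4 days either way. The *A. cahirinus* excess at D5 without them was smaller than the median shift of 0.21 log2 over all paired genes on that day. *Cd93*, a glycoprotein of sprouting endothelium, had the highest mean change in *M. musculus* (1.94, 1.60, 1.54 and 1.43, called on all 4 days), and the water channel *Aqp1* had the lowest, falling at D5 (-0.56) and D10 (-0.32) and rising at D20 (0.44). In *A. cahirinus* *Gpihbp1*, which carries lipoprotein lipase on capillaries, fell the most (-3.52 at D5 and -3.21 at D20), from a component that also matched the muscle gene *Casq1*. The highest there was the transcription factor *Sox18*, with values of 0.57 to 1.04 that were not called.

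Among the 6 other VEGF ligands, receptors and co-receptors found, 2, 3, 2 and 3 rose and none fell in *M. musculus*, while in *A. cahirinus* 0, 0, 1 and 0 rose and 1, 1, 0 and 0 fell. The co-receptor *Nrp2* rose on all 4 days in *M. musculus* (0.99, 1.17, 1.28 and 1.14) and at D15 in *A. cahirinus* (0.52). The lymphatic receptor *Flt4* rose on all 4 days in *M. musculus* (0.91, 0.69, 0.58 and 0.84) and had values of 0.10 to 0.39 in *A. cahirinus*, none called. *Vegfd*, a lymphatic ligand named after its values were seen, was the gene that fell in *A. cahirinus*, at D5 (-0.88) and D10 (-0.95). The lowest in *A. cahirinus* was the ligand *Pgf* (-1.01 at D20) and in *M. musculus* the ligand *Vegfb* (-1.08 at D5, -0.85 at D20), neither called on any day.

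Of the 20 other genes of the angiopoietin and Notch pathways of sprouting, 12, 10, 9 and 8 rose and 2, 2, 3 and 1 fell in *M. musculus*, against 5, 3, 3 and 2 that rose and 4, 3, 6 and 6 that fell in *A. cahirinus*. The numbers that rose in *A. cahirinus* were below the background share on every day, and 3, 2, 3 and 2 of the 17 genes with a component of their own rose. The tip-cell peptide *Apln* rose the most in *M. musculus* (2.04, 2.71, 2.66 and 2.38), and the *Tek* relative *Tie1* also rose on all 4 days (1.89, 1.51, 1.48 and 1.52). In *A. cahirinus* the component with *Tie1* also matched *Fgfr3* and fell at D20 (-0.34). The Notch ligand *Dll4* rose at D5 (0.75) and D10 (0.93) in *M. musculus*, and in *A. cahirinus* it had values from -0.48 to -0.74 with none called. *Unc5b*, a netrin receptor of sprouting vessels, fell on all 4 days in *A. cahirinus* (-0.65 to -0.97), and the chemokine receptor *Cxcr4*, also carried by leukocytes, rose on all 4 (3.49, 1.89, 1.66 and 2.15). *Angpt1*, the activating ligand of *Tek*, fell at D5 in *A. cahirinus* (-0.73) and was not called in *M. musculus*, where the transcription factor *Hey2* was lowest, with values down to -1.76 and none called. *Notch1* rose at D5 (0.56) and fell at D15 (-0.12) in *A. cahirinus*, and was not called in *M. musculus*.

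Hypoxia-response genes share with *Vegfa* the regulator HIF-1. Of the genes tested, 9 of 10 rose at D5 in *M. musculus*, beside 22.8% of all paired genes, and 5 of 11 in *A. cahirinus*, beside 31.7%, followed by 5, 1 and 0 and by 5, 2 and 2 on the later days. Over the 9 genes with a component of their own, 3, 3, 1 and 1 rose in *A. cahirinus*, near the background share at D5. The numbers that fell were 0, 0, 0 and 3 in *M. musculus*, against 0, 1, 2 and 2 in *A. cahirinus*. *Hif1a* itself rose at D5 (1.27) and D10 (0.83) in *M. musculus* and at D5 (1.23) and D10 (0.32) in *A. cahirinus*. The glucose transporter *Slc2a1* was highest in *A. cahirinus* (2.50, 1.24, 1.05 and 0.83, all called) and *Ankrd37* in *M. musculus* (2.06 and 1.14 at D5 and D10, called). The mitophagy gene *Bnip3* was lowest in both, falling on D10 to D20 in *A. cahirinus* (-1.26 at D20), while in *M. musculus* it rose at D5 (0.29) and fell at D20.

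Of 8 angiogenesis inhibitors, 3, 5, 4 and 5 rose and 2 fell on each day in *M. musculus*, while 2, 3, 3 and 3 rose and 4 fell on each day in *A. cahirinus*. *Thbs2*, a matrix thrombospondin, rose the most in *A. cahirinus* (1.66, 3.12, 3.05 and 2.57), and *Col18a1*, the source of endostatin, in *M. musculus* (2.54, 2.69, 2.69 and 2.33). The lowest were *Cnmd*, a cartilage inhibitor, in *A. cahirinus* (-2.64 at D5, -1.85 at D20) and the basement membrane collagen *Col4a3* in *M. musculus* (-2.40 at D5, -2.39 at D20), each called on all 4 days. The inhibitors' medians were -0.19 to -0.40 in *A. cahirinus*, against 0.39 to 0.90 in *M. musculus*, while their summed level in *A. cahirinus* was above D0 up to D15. Most of that sum was *Thbs1*, named after its values were seen, with 7936 of 11949 reads at D0 and 18550 of 23122 at D5. Its D5 value of 1.22 was not called, and it fell on D10 to D20 (-0.81, -1.03 and -0.77).

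Of the genes of leukocyte adhesion other than *Sele*, 4 of 8 rose and 2 fell at D5 in *A. cahirinus*. In *M. musculus* 4 of 9 rose and 1 fell, and their median was -0.16, or 0.30 over reciprocal pairs. The 9 include *Madcam1*, named after its values were seen, which reached at most 0.45 reads in any group. It stood at -5.25 at D5, not called, and has no reciprocal pair, so the sign of this median is not settled. On D10 to D20, 3, 2 and 2 rose and 1 fell each day in *A. cahirinus*, against 1, 2 and 0 that rose and 2, 1 and 0 that fell in *M. musculus*. The junction gene *Jam2* was lowest in both, falling on all 4 days in *A. cahirinus* (-1.16 at D5) and on D5 to D15 in *M. musculus* (-0.73 at D5). Among the genes that rose at D5 were the selectin *Selp* and the adhesion gene *Icam1*, both named after their values were seen. Their D5 values were 3.50 and 2.06 in *A. cahirinus*, against 2.02 and 0.80 in *M. musculus*.

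Of 9 lymphatic genes other than *Lyve1*, 2, 2, 2 and 3 rose and 1, 0, 0 and 0 fell in *M. musculus*, while 1, 2, 2 and 3 rose and 3, 2, 3 and 3 fell in *A. cahirinus*. Up to D15 the numbers that rose were near the background share in *M. musculus*, and in *A. cahirinus* below it at D5 and near it at D10 and D15. *Pdpn*, which fibroblasts and keratinocytes also carry, rose most in both, by 3.55, 3.44, 3.01 and 2.57 in *A. cahirinus*, against 2.25, 2.21, 2.15 and 1.88 in *M. musculus*. *Foxc2*, a transcription factor of lymphatic valves, was lowest in *A. cahirinus*, with falls at D10 (-1.74) and D15 (-2.15), and *Mmrn1* in *M. musculus*, with no day called. The *Foxc2* falls started from only 13.6 reads at D0. In *A. cahirinus* the list's median was -1.02 at D20 while its summed level, in which *Pdpn* is counted, lay above D0 on every day. In *M. musculus* the medians ran from 0.01 at D5 to 0.50 at D20.

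Mural cells, the pericytes and smooth muscle around vessels, were read from 11 genes. In *M. musculus* 5, 6, 6 and 5 rose and 3, 1, 1 and 2 fell, and in *A. cahirinus* 2, 5, 5 and 2 rose and 5, 3, 4 and 4 fell. The *A. cahirinus* components of *Acta2*, *Myh11* and *Des* also matched other genes. Over the 8 genes with a component of their own, 1, 4, 4 and 2 rose and 3, 2, 3 and 3 fell in *A. cahirinus*. *Acta2*, which myofibroblasts also carry, was highest in *M. musculus* (2.52, 2.22 and 1.84 on D5 to D15, called), and the smooth muscle gene *Cnn1* in *A. cahirinus* (2.51 at D10 and 1.87 at D15, called). *Des*, which skeletal muscle of the ear also carries, was lowest in both, at -2.28 in *M. musculus* on D20 beside -2.13 in *A. cahirinus*, where its component also matched *Rreb1*.

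**Figure D4:**
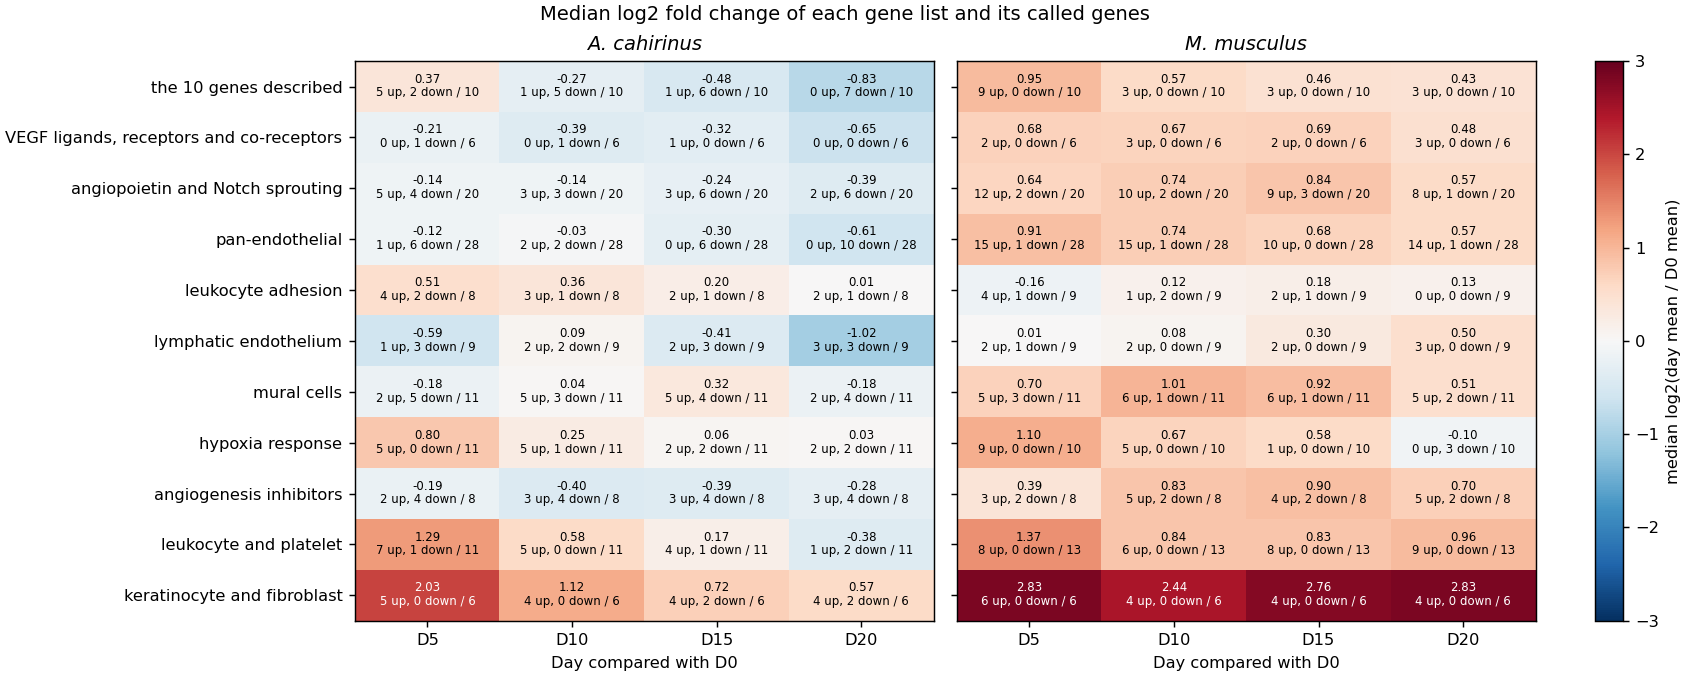
Median log2 fold change against D0 on each day (columns) of the 10 genes and of the 10 further gene lists (rows), for *A. cahirinus* and *M. musculus*, with the number of genes called up and down of those tested. The pan-endothelial row runs from -0.12 to -0.61 in *A. cahirinus*, against 0.91 to 0.57 in *M. musculus*, while the leukocyte and platelet row and the keratinocyte row are above D0 at D5 in both.

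Markers of other cells that carry some of these transcripts moved as well. Of the leukocyte, platelet and red cell genes tested, 7, 5, 4 and 1 of 11 rose in *A. cahirinus* and 8, 6, 8 and 9 of 13 in *M. musculus*, while 1, 0, 1 and 2 fell in *A. cahirinus* and none in *M. musculus*. Those falls were the component paired with *Gp1bb* on D5, D15 and D20 and the macrophage receptor *Cd163* on D20, and none of the 43 matching sequences of the *Gp1bb* component matched *Gp1bb* best, all matching *Sept5*. Over the 8 genes with a component of their own, 5, 4, 4 and 1 rose and 0, 0, 0 and 1 fell in *A. cahirinus*. The summed level of all the listed genes, 11 in *A. cahirinus* and 13 in *M. musculus*, went from 6364 reads at D0 to 18881, 8871, 6109 and 5009 in *A. cahirinus* and from 2644 to 6858, 5019, 4880 and 5856 in *M. musculus*. Over the genes with a component of their own the *A. cahirinus* sums were 3359, 13747, 5128, 3232 and 2486. None of these genes was at 0 in every group. In both species the sum was highest at D5, the day on which *Cdh5*, *Flt1*, *Vegfa*, *Angpt2* and *Lyve1* were also highest in both. The *A. cahirinus* value of *Cdh5* at D5, 386 reads beside 380 at D10, was not called. In *A. cahirinus* *Pecam1*, *Kdr* and *Sele* were instead highest at D0, and *Tek* and *Vwf* at D10. In *M. musculus* *Pecam1*, *Kdr*, *Tek* and *Sele* were highest at D5 too, and *Vwf* at D20. In *A. cahirinus* the sum was below D0 at D15 and D20. It held 1546 reads of the red cell gene *Hbb-bs* at D0, whose values of -0.99 at D15 and -1.01 at D20 were not called. The median over the *A. cahirinus* genes with a component of their own was 0.29 at D15 and -0.39 at D20. The macrophage gene *Adgre1* rose most in *A. cahirinus* (3.23, 2.59 and 2.60 on D5 to D15) and the globin *Hbb-bs* in *M. musculus* (2.06 at D20, the 1 day called). The *Adgre1* rises started from only 6.29 reads at D0. The lowest were the macrophage receptors *Timd4* in *A. cahirinus*, not called, and *Cd163* in *M. musculus*, which rose at D20 (0.86). The part of these cells in the values of *Pecam1*, *Vwf*, *Flt1* and *Lyve1* was not tested.

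Of 5 keratin genes and the fibroblast collagen *Col1a1*, from cells that also make *Vegfa*, all 6 rose at D5 in *M. musculus*, while in *A. cahirinus* the 5 keratins rose. *Col1a1*, named after its values were seen, stood there at -0.58 at D5, not called, and rose afterwards (2.08, 2.96 and 2.51), against 2.53, 3.72, 3.75 and 3.89 in *M. musculus*, called on all 4 days. On each later day 4 rose in either species, and 0, 2 and 2 fell in *A. cahirinus* while none fell in *M. musculus*. The wound keratin *Krt16* rose most, by 9.76, 7.71, 6.38 and 3.76 in *M. musculus* and by 3.74, 2.05, 1.49 and 1.29 in *A. cahirinus*. *Krt5* was lowest in *M. musculus*, rising at D5 only (0.83), and *Krt14* in *A. cahirinus*, rising at D5 (1.29) and falling at D15 (-0.63) and D20 (-0.74). The keratin components of *A. cahirinus* matched several keratin genes, and the 6 genes were read from 4 components, so these values are not of single genes. Their part in the *Vegfa* values was not tested.

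For 3 of the genes, the paired genes with the nearest pattern were found by Euclidean distance over the 8 log2 fold changes, among 11162 pairs with at least 10 reads in every group. Nearest to *Cdh5* were *Tmem120a* (0.472), *Sh2d3c* (0.485) and *S1pr1* (0.493), the last a sphingosine 1-phosphate receptor of endothelium. *S1pr1* had log2 fold changes of 0.16 at D5 and -0.27 at D20 in *A. cahirinus*, against 1.35 and 0.77 in *M. musculus*. Nearest to *Vegfa* were *Bdh1* (0.505), *Hlx* (0.568) and *Aldh3b3* (0.584). Nearest to *Sele* were *Grhpr* (0.994), *Cd1d1* (1.06) and *Ces2g* (1.28), all further off than those of *Cdh5* and *Vegfa*.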

How the data were processed

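Strand-specific, ribosomal RNA-reduced paired-end libraries of 5 groups in each species were made by the authors, who assembled the *A. cahirinus* transcriptome with Trinity, estimated counts with RSEM and Bowtie (mm10 annotation for *M. musculus*) and compared each day with D0 in EBSeq. The 8 deposited tables hold, per gene, posterior probabilities (a fraction from 0 to 1) and 2 fold-change ratios of D0 to the day, with no value per animal. These are the authors' comparisons, and no other values were used here. Both ratios are functions of the same group means, which were solved for, scaled to the D5 table and converted to log2 (0.01 added to each mean, as in the deposited ratio). D0 means of the 4 tables of a species then agreed within 0.0041 log2. A gene was called at a posterior probability of at least 0.95.

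*M. musculus* genes are numbered, not named, in the tables. Reference transcripts (61642) were aligned to GENCODE M21 with minimap2 2.31-r1302, and numbers were placed between 1992 known ones from their text order, at a placement probability of at least 0.95. Of 1195 known numbers held out and not used to choose settings, 1025 were placed right, 4 wrong and 166 not placed. Settings were compared on the other known numbers, and the limit was raised to 0.95 after values of listed genes had been seen. The numbers of the 10 genes did not depend on this. *A. cahirinus* components were paired by top BLASTN bit score (a deposited score, with percent identity below 99) in the deposited hit tables. BLASTN percent identity and bit scores are the authors' values. Reads per kilobase used the longest sequence. Counting intervals took 3 libraries a group (2 for *A. cahirinus* D15) and leave out spread between animals.

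The genes, the 10 further lists and the alternatives were chosen with earlier results of these data known. Named from each list were the genes with the highest and lowest mean change in each species (at least 10 reads in some group), and *Flt4*, *Tie1*, *Dll4*, *Notch1*, *Angpt1* and *Hif1a*. One gene that this rule names is not reported here. Most alike genes were sought for *Cdh5*, *Vegfa* and *Sele*. No test of a list was run. Alternatives were the other deposited ratio, a pseudocount of 1, centring on all paired genes, a posterior probability of 0.99, a log2 fold change of 1, a mean of 10, other pairing rules and neighbouring gene numbers. Recovery of means was tested on simulated data. Python 3.11.15, numpy 2.4.6, pandas 2.3.3, scipy 1.17.1, Biopython 1.88 and matplotlib 3.10.9 were used.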

Additional observations from a re-analysis of the deposited data

Results flagged for a closer look

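Of the 10 genes, *Pecam1* and *Kdr* lay below D0 on all 4 days in *A. cahirinus* and above D0 on all 4 days in *M. musculus*. Averaged over the 4 days, the log2 fold change differed (*A. cahirinus* minus *M. musculus*) by -1.34 for *Pecam1*, from means of -0.55 and 0.79, and by -1.22 for *Kdr*, from -0.45 and 0.77. The *Kdr* values of *A. cahirinus* at D5 and D10 were not called. The difference was not tested for either gene, since no value per animal was at hand. The *A. cahirinus* *Pecam1* component also counts *Rbms3*, whereas 74 of 74 matching sequences of the *Kdr* component matched *Kdr*.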

How the results depend on the processing

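All 10 species differences kept their direction under the other deposited ratio, a pseudocount of 1, centring, no limit on identity, summed components and reciprocal pairing, and moved by less than their combined counting intervals (*Angpt2*, near 0, went from -0.01 to -0.05 with centring and to -0.06 with summed components). The list medians were less stable: of 88, 20 moved under reciprocal pairing, 16 under centring, 14 with summed components and 4 with no limit on identity. In 11 cases a median changed sign, among them leukocyte adhesion at D5 in *M. musculus* (0.30 with reciprocal pairs), mural cells at D10 in *A. cahirinus* (-0.06, -0.08 and -0.03 under 3 settings) and the keratinocyte list in *A. cahirinus* on D10 to D20 (-0.23, -0.63 and -0.74 with no limit on identity); the others lay within 0.09 of 0. A log2 fold change of at least 1 as well moved 51 of 80 list counts. It left 0, 2, 2 and 3 called genes among the 10 in *A. cahirinus* on D5 to D20, against 5, 0, 0 and 0 in *M. musculus*. At D5 this was 0 of 7 calls in *A. cahirinus* and 5 of 9 in *M. musculus*. Every *A. cahirinus* call at D5, and most calls after D5 in either species, thus rested on a change below 2-fold. The *A. cahirinus* median at D5 was 0.16 after centring and 0.57 without *Pecam1*, a choice made after seeing the data. Centring moved 11 of 80 gene values beyond their counting interval, all in *A. cahirinus* at D5 or D10, and changed the sign of 2, both of *Cdh5* and neither called (D5 from 0.17 to -0.04, D15 from 0.0013 to -0.04). As a control, the *M. musculus* numbers next to those of the 10 genes gave 1 call on each day (one below) and 3, 4, 3 and 2 calls on D5 to D20 (one above), beside 9, 3, 3 and 3 for the 10 genes, so after D5 the *M. musculus* counts are within 1 of those of the numbers one above. With a posterior probability of 0.99 or a mean of 10, all 8 counts stayed within 1.5 times. No paired analysis was possible because the tables hold no value per animal, and leaving out a replicate could not be run for the same reason. Among the 10 genes, depth limits *Angpt2* and *Sele* the most. *Pgk1* was not tested in *M. musculus*, because the number taken for it had a mean of 0 in every group. That number lies away from the place of *Pgk1* on chromosome X in the gene order.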
